A study of Mus musculus with 3 samples.

Results

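The genes described here encode 10 immunoglobulin superfamily receptors that raise or restrain T cell activation, out of 21887 protein-coding genes, and the question was whether and where Tcf1 occupied them in regulatory (Treg) and conventional CD4 T cells. The costimulatory receptors were Cd28, Icos and Cd226, and the inhibitory receptors were Ctla4, Pdcd1, Btla, Lag3, Tigit, Cd96 and Havcr2. A Tcf1 peak was given to a receptor gene if the midpoint of the peak lay in the gene's span, or if the receptor was the nearest protein-coding gene within 100 kb. This gave the receptors 5 of 3402 Treg peaks and 6 of 4519 conventional peaks. The choice of genes did not use the peaks, but it was made with earlier results of these data known.

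Tcf1 was mapped by chromatin immunoprecipitation and sequencing (ChIP-seq), with an antiserum against Tcf1, in CD4 T cells sorted from the spleens of wild type Foxp3-Cre-GFP mice aged 8 to 10 weeks. Treg cells were TCRb+ CD4+ CD25+ and positive for the Foxp3 reporter, and conventional cells were TCRb+ CD4+ and negative for CD25 and the reporter. The tissue label of the conventional sample calls the cells effector, while its title and source call them conventional. Each cell type had 1 library and 1 list of peaks on the mm10 build, and the labels do not say whether mice were pooled. The other library of the study, from Tcf1-deficient CD4 T cells of CD4-Cre+ Tcf1 fl/fl mice, was not analysed here, so no background from cells without Tcf1 stands beside the values. The lists hold positions without read counts, so depth is unknown, peak height cannot be compared, and the sorted identities cannot be checked against marker expression. With no replicates, every difference below is between 2 lists, has no test, and cannot be told apart from a difference between the 2 libraries in depth or enrichment.

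T cells need a signal from costimulatory receptors beside the antigen receptor, and Cd28 is the main source of it in naive cells. Ctla4 competes with Cd28 for the ligands Cd80 and Cd86 and is held at high levels by Treg cells, while Tigit and Cd96 compete with the activating receptor Cd226 for the ligand Pvr in the same way. Pdcd1, Btla, Lag3 and Havcr2 dampen activated T cells and are well known from chronically stimulated, exhausted cells. Tcf1, encoded by Tcf7, is an HMG-box factor of the TCF/LEF family that binds DNA with the letters CTTTGA at the core of its site and maintains naive, memory and stem-like T cells.

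The sequences that best show where these peaks fell are the promoters of Ctla4, Tigit and Btla, the only receptor promoters that a peak overlapped among the 6 in the RefSeq table used here. Each is the 300 bases from 250 before to 50 after the annotated start site, on the gene's own strand, from RefSeq on GRCm38.p6, the assembly of which mm10 is the browser build. Capitals mark every match, on either strand, to the letters searched, which were CTTTGA and its longer form CTTTGAT (TCF/LEF-type), TGTGGT (RUNX-type) and GGAAGT (ETS-type).
Ctla4, chr1:60908775-60909074, plus strand: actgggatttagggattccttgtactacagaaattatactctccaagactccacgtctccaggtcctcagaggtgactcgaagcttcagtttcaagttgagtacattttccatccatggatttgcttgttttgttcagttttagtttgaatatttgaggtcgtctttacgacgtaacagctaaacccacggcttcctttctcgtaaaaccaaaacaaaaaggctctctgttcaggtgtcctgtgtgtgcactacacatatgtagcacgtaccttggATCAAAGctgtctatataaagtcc
Tigit, chr16:43664135-43664434, minus strand: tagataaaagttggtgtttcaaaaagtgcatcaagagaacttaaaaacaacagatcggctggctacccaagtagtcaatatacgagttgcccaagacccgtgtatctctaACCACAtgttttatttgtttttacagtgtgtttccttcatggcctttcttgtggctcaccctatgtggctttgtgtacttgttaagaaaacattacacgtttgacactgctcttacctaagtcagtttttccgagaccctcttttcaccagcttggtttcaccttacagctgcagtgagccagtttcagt
Btla, chr16:45224087-45224386, plus strand: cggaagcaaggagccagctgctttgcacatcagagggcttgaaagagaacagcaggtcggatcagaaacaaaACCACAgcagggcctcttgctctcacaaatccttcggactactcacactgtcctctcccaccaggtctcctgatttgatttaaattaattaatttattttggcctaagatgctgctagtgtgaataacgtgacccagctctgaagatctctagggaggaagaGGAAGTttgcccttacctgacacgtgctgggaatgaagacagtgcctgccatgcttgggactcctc

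Tcf1 peaks lay at 6 of the 10 receptor genes in at least 1 list, against 20.4% of all protein-coding genes. A Treg peak was present at 4 of 10 (Cd28, Ctla4, Pdcd1 and Tigit), against 12.3% of all genes, and a conventional peak at 5 of 10 (Ctla4, Pdcd1, Tigit, Lag3 and Btla), against 16.3% of all genes. Ctla4, Pdcd1 and Tigit had a peak in both lists, against 8.17% of all genes, and at each of them the peaks of the 2 lists overlapped. Icos, Cd226, Cd96 and Havcr2 had no peak assigned in either list. The background shares are over all protein-coding genes, active in T cells or not, and a gene far from its neighbours can collect more peaks. The stretch of genome nearest to a receptor gene, span included, had a median of 116 kb, against 51.6 kb over all genes, and 9 of the 10 receptors were above the median of all genes, Lag3 being the exception with 16.8 kb. The part of gene activity and spacing in the counts was not tested.

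**Figure D1:**
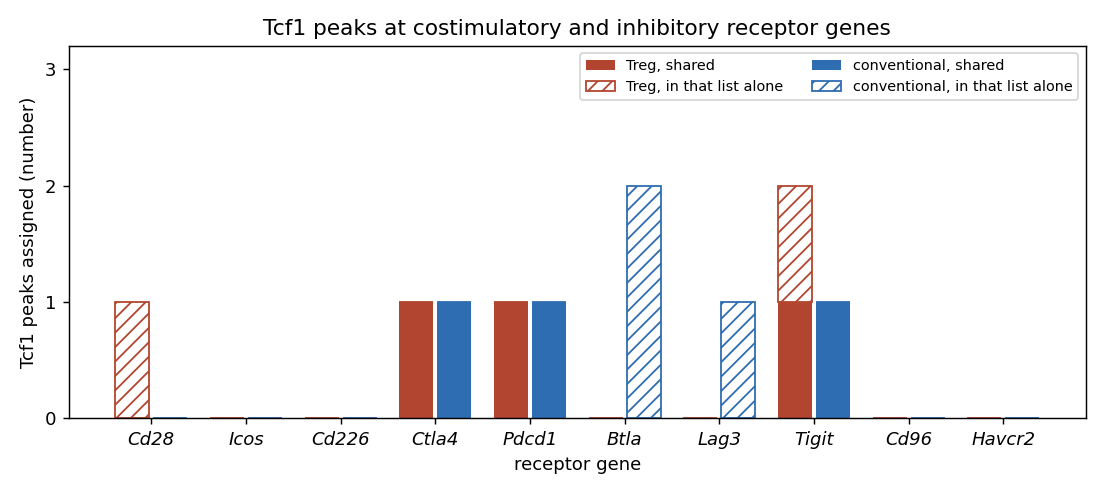
Number of Tcf1 peaks assigned to each receptor gene, with Treg bars left of conventional bars, filled for peaks that overlap a peak of the other list and hatched for peaks of 1 list alone. Ctla4, Pdcd1 and Tigit have a shared peak, Cd28 and Tigit a Treg-only peak, Btla and Lag3 conventional-only peaks, and the other 4 genes none.

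Of the 5 Treg peaks at the receptors, 3 overlapped a conventional peak, or 60% (exact 95% Clopper-Pearson interval 14.7% to 94.7%), against 56.9% of all Treg peaks. Of the 6 conventional peaks, 3 overlapped a Treg peak, or 50% (11.8% to 88.2%), against 42.8% of all conventional peaks. The intervals cover counting error only, and at these counts a difference from the whole lists was not detectable. The remaining 2 Treg and 3 conventional peaks were found in 1 list alone, with no overlapping peak and no midpoint of the other list within 1000 bp.

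Cd28, the costimulatory receptor that naive T cells depend on, had a Treg peak and no conventional peak. The gene spans chromosome 1 from 60746388 to 60773359, and its peak (60777005 to 60777309, 305 bp wide) lay 3798 bp beyond the higher-coordinate end of the span. It was a narrow peak, ranked 2418 of 3402 by width, and 28.7% of Treg peaks were narrower. A long noncoding RNA gene, 2310016D23Rik, lay closer to the midpoint than Cd28 did, at 1304 bp, so the peak is given to Cd28 only among protein-coding genes. The nearest conventional peak was the one at Ctla4, 135703 bp from the Cd28 span.

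Cd28, Ctla4 and Icos are neighbours, and Tcf1 peaks were few over the 254 kb that they cover together. The Treg list had 2 peaks there and the conventional list 1. Icos (chromosome 1, 60960773 to 61000322), a costimulatory receptor of follicular helper and activated cells, had none of its own, and the nearest peak to it in either list was the one at Ctla4, 51647 bp away in the Treg list and 51711 bp away in the conventional list. Cd226 (chromosome 18, 89176954 to 89272232), the activating receptor for Pvr, had no peak of either list within 100 kb, and the nearest Treg peak was 282723 bp away. Of the 3 costimulatory genes, then, Cd28 alone had a peak, in the Treg list.

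Ctla4, the inhibitory counterpart of Cd28 (chromosome 1, 60909025 to 60915832, plus strand), had 1 peak in each list, over its start site. The Treg peak (60908920 to 60909333) was 414 bp wide and its midpoint lay 101 bp downstream of the start site. The conventional peak (60908888 to 60909237) was 350 bp wide and its midpoint lay 37 bp downstream. The 2 peaks had 318 bp in common and midpoints 64 bp apart, so most of each peak lay on bases that the other list also called.

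The promoter window printed above has a single match to the TCF/LEF-type letters, and it lay inside the peaks of both lists. The match, ATCAAAG, is CTTTGAT read on the other strand, and occupied positions 60909051 to 60909057, starting 26 bp after the start site. It was 72 bp from the midpoint of the Treg peak and 8 bp from that of the conventional peak. Over all 32851 promoter windows of the RefSeq table, 3.73% held CTTTGAT and 16.0% held CTTTGA on either strand. A match is a description of the letters and does not show that Tcf1 bound there.

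Tigit, an inhibitory receptor that is abundant on Treg cells (chromosome 16, 43626137 to 43665125, minus strand), also had a shared peak over its annotated start site. The Treg peak (43664078 to 43664546) was 469 bp wide, with its midpoint 128 bp upstream of that site, and covered all 300 bases of the promoter window. The conventional peak (43664045 to 43664413) was 369 bp wide, with its midpoint 45 bp upstream, and covered 279 of them. The peaks shared 336 bp, and their midpoints were 83 bp apart. The gene span extends beyond that start site, so both midpoints lay inside the span. They were 813 bp (Treg) and 896 bp (conventional) from its nearer end. The Tigit window held no match to CTTTGA, and 1 match to the RUNX-type letters, 140 bp upstream of the start site and inside both peaks. The absence of CTTTGA says only that these letters are not in the 300 bases.

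A second Treg peak was assigned to Tigit (43709156 to 43709622, 467 bp wide) and had no conventional partner. It lay 44264 bp beyond the higher-coordinate end of the span, on the upstream side of the gene. The dopamine receptor gene Drd3 was almost as close, at 44626 bp, so the assignment rests on a lead of 362 bp. Both Treg peaks at Tigit were among the wider peaks of the list, with 74.5% and 74.1% of Treg peaks narrower.

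**Figure D2:**
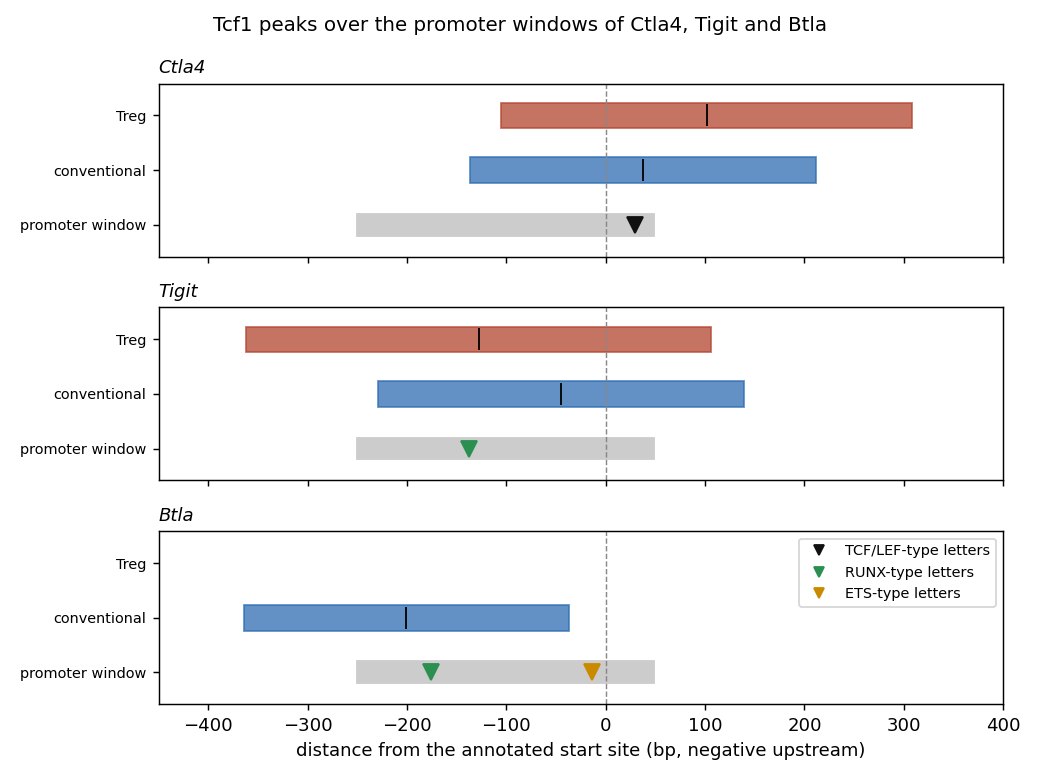
Tcf1 peaks (bars, with a tick at the midpoint) over the promoter windows of Ctla4, Tigit and Btla (grey, 300 bases), as distance in bp from the annotated start site with upstream to the left, Treg above conventional. Triangles mark letter matches; the TCF/LEF-type match at Ctla4 lies in both peaks, and the Btla window is overlapped by a conventional peak alone.

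Pdcd1, the inhibitory receptor of activated and exhausted T cells (chromosome 1, 94038305 to 94052553, minus strand), had a shared peak past the end of the gene and none at its start. The Treg peak (94035113 to 94035647) was 535 bp wide and the conventional peak (94035088 to 94035658) was 571 bp wide. The Treg peak lay entirely within the conventional one, and the midpoints were 7 bp apart, the closest match among the 3 shared pairs at the receptors. The Treg midpoint was 2925 bp, and the conventional midpoint 2932 bp, below the lower end of the span, which is the downstream side of this gene. The next protein-coding gene on that side, Neu4, was 7046 bp from the Treg midpoint. The start site was 17173 bp from the Treg midpoint, and the Pdcd1 promoter window was overlapped by no peak.

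Btla, an inhibitory receptor that binds Tnfrsf14 (chromosome 16, 45223705 to 45252895, plus strand), had 2 peaks in the conventional list and none in the Treg list. The first (45223973 to 45224300) was 328 bp wide, with its midpoint 201 bp upstream of the annotated start site, and covered 214 bases of the promoter window. The gene span begins before that start site, so this midpoint lay inside the span, 431 bp from its nearer end. The second (45261408 to 45261708) was 301 bp wide and lay 8663 bp past the downstream end of the span. The nearest Treg peak was 64873 bp away, in Atg3. The promoter window held a match to the RUNX-type letters inside the conventional peak, 178 bp upstream of the start site, and a match to the ETS-type letters outside it, and none to CTTTGA.

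Lag3, an inhibitory receptor that binds MHC class II and is the close relative and neighbour of Cd4 (chromosome 6, 124904359 to 124912434), had 1 conventional peak. That peak (124898278 to 124898576, 299 bp wide) lay between Cd4 and Lag3, 5932 bp from Lag3 and 10180 bp from Cd4. No Treg peak was assigned to Lag3. A Treg-only peak (124917958 to 124918231) lay 5660 bp beyond the other end of Lag3 and was given to Ptms, 148 bp away. Counted without regard to other genes, Lag3 therefore had 1 peak of each list within 10 kb, on opposite sides of the gene.

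**Figure D3:**
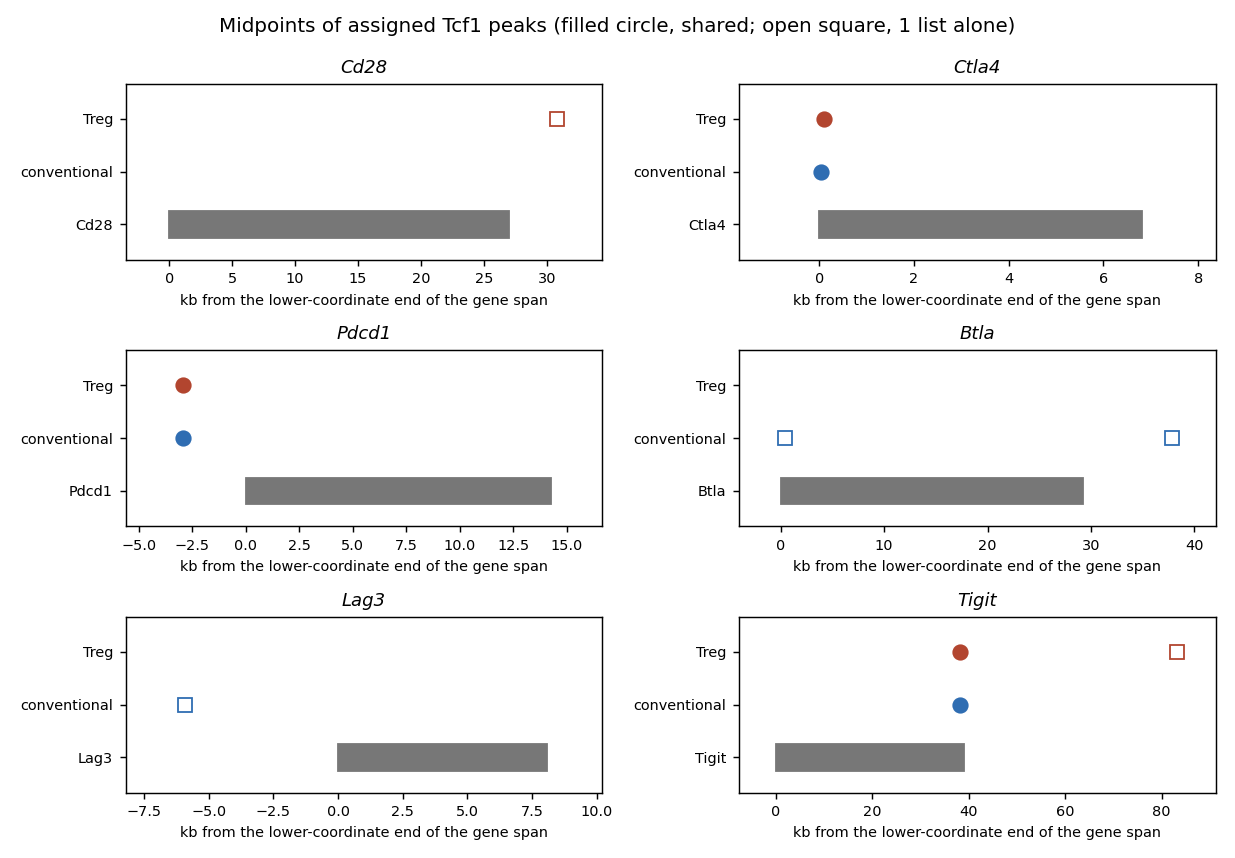
Midpoints of the assigned Tcf1 peaks at the 6 receptor genes that had any, in kb from the lower-coordinate end of the gene span (grey bar), with Treg above conventional. Filled circles are shared peaks, which sit at Ctla4, Pdcd1 and Tigit; open squares are peaks of 1 list alone.

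Every conventional-only peak at the receptors was among the narrow peaks of its list. The peaks at Btla (328 and 301 bp) and Lag3 (299 bp) were wider than 18.7%, 8.30% and 7.44% of conventional peaks, whose narrowest was 279 bp. When the longer conventional list was limited to its 3402 widest peaks, as many as the Treg list holds, none of these 3 remained and Btla and Lag3 had no peak. The narrowest conventional peak kept was then 346 bp wide. The Treg-only peak at Cd28 was narrow as well, and with the wider part of the Treg list (366 bp and above) Cd28 had no peak.

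Among the shared pairs, width differed in both directions. The Treg peak was the wider at Ctla4 (414 bp in Treg, 350 bp in conventional) and Tigit (469 bp in Treg, 369 bp in conventional), and the narrower at Pdcd1 (535 bp in Treg, 571 bp in conventional). Over all 1935 Treg peaks with a conventional partner, the Treg peak was the wider in 30.0%, and the median of Treg minus conventional width was -72 bp. Within their lists, 4 of the 5 Treg peaks at the receptors were wider than the Treg median of 366 bp, and 1 of the 6 conventional peaks, that at Pdcd1, was wider than the conventional median of 428 bp. Width depends on depth and on the calling threshold, so it is given as a rank within a list and not as binding strength.

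**Figure D4:**
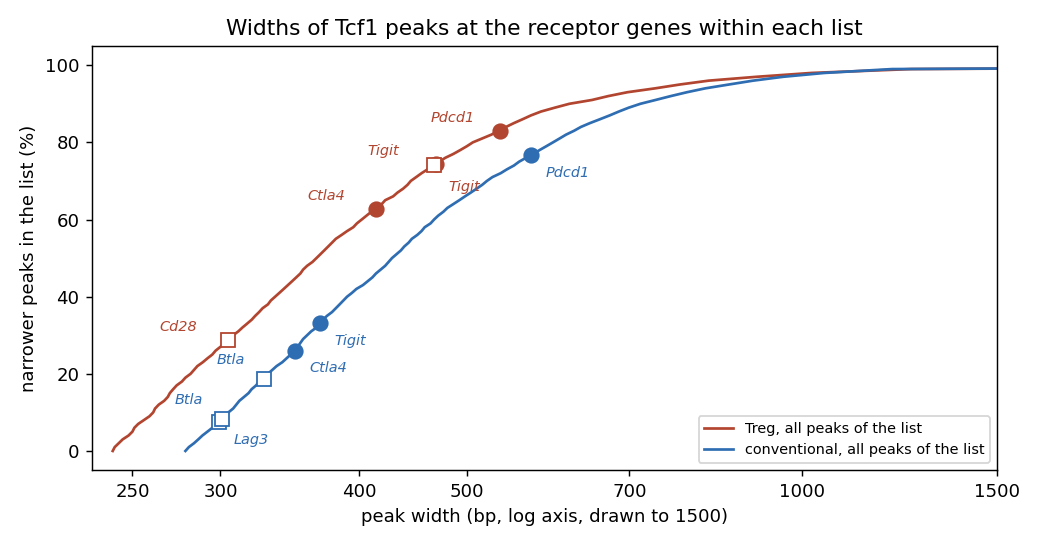
Width of each Tcf1 peak at the receptor genes (bp, log axis) against the percentage of narrower peaks in its own list, with lines for the whole Treg and conventional lists, filled circles for shared peaks and open squares for peaks of 1 list alone. Treg peaks at Tigit, Pdcd1 and Ctla4 sit above the middle of their list, while conventional peaks other than that at Pdcd1 sit in the lower part of theirs.

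Cd96 and Havcr2 had no peak of their own, but their neighbours did. Cd96 (chromosome 16, 46035652 to 46120248, minus strand), a receptor for Pvr, had no peak inside its 84597 bp span. The nearest peaks in both lists were a pair of shared peaks at Plcxd2. Of these the nearer was 443 bp wide and 24855 bp from Cd96 in the Treg list, and 985 bp wide and 24951 bp away in the conventional list, where it ranked 120 of 4519 by width. Both lay past the downstream end of Cd96, and its promoter window was overlapped by no peak.

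Havcr2, an inhibitory receptor of exhausted and Th1 cells (chromosome 11, 46454931 to 46481255, plus strand), had no peak within 10 kb of its span in either list. Within 100 kb lay 4 Treg and 6 conventional peaks, all assigned to other genes. The nearest was a shared peak in Med7, 552 bp wide and 17864 bp from Havcr2 in the Treg list, and 388 bp wide and 17893 bp away in the conventional list. It lay upstream of Havcr2, whose promoter window was overlapped by no peak. The lists do not tell which gene a peak acts on.

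**Figure D5:**
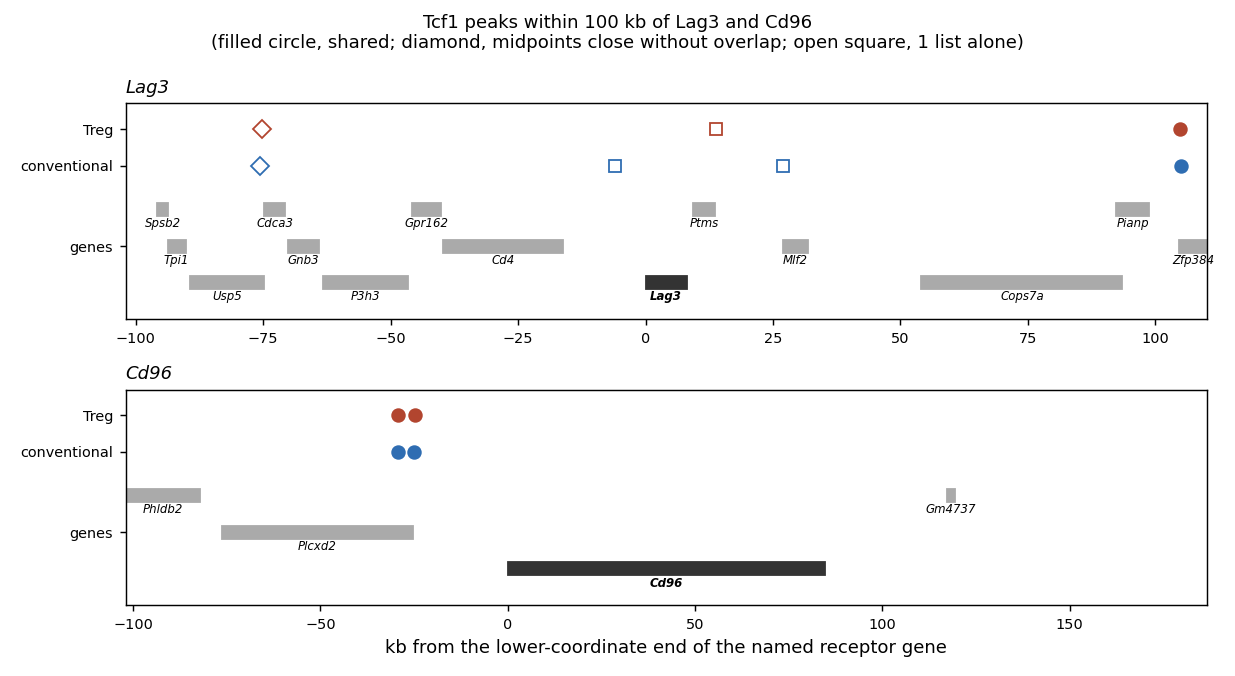
Tcf1 peaks and protein-coding genes within 100 kb of Lag3 and Cd96, in kb from the lower-coordinate end of the named receptor gene (black bar), with Treg above conventional and other genes in grey. Shared peaks (filled circles) sit at Plcxd2 beside Cd96 and at Zfp384 at the right edge of the Lag3 panel, diamonds mark close peaks without overlap, open squares mark peaks of 1 list alone, and no peak lies inside either receptor gene.

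Over the 6 receptor promoters in the table (Ctla4, Pdcd1, Btla, Tigit, Cd96 and Havcr2), a Treg peak overlapped 2, against 4.86% of all 32851 windows, and a conventional peak overlapped 3, against 7.66%. Peaks of both lists overlapped 2, those of Ctla4 and Tigit, against 3.21%. The windows belong to 27025 genes, some with several windows, against the 21887 protein-coding genes of the other counts. The 2 backgrounds therefore cover different sets of genes. The core TCF/LEF-type letters CTTTGA were found in 1 of the 6, at Ctla4, against 16.0% of all windows, so this count is near the background. The RUNX-type letters were found in 4 of the 6 (Tigit, Btla, Cd96 and Havcr2), against 16.8% of all windows, and the ETS-type letters in 2 (Btla and Havcr2), against 23.8%. Cd96 and Havcr2 had RUNX-type matches and no peak, so these letters were present with and without a Tcf1 peak.

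The ligands, related receptors and signalling partners of the receptors came from 4 lists with 59 genes, of which 58 were in the gene table. The ligands of the receptors, most of which act from antigen-presenting cells, had a Treg peak at 3 of 14, against 12.3% of all genes, and a conventional peak at 4 of 14, against 16.3%. Both ligands of Pdcd1 were among them. Cd274 had a shared peak at its start (29367077 to 29367488 on chromosome 19 in the Treg list, 412 bp wide, and 378 bp wide in the conventional list) and a further conventional-only peak. The midpoint of the Treg peak lay in the neighbouring gene Plgrkt as well, and that of the conventional peak 95 bp from it. Pdcd1lg2 had a shared peak of 656 bp in the Treg list and 827 bp in the conventional list, inside the gene, and also a further conventional-only peak. Tnfrsf14, the ligand of Btla, had a Treg-only peak 13877 bp and a conventional-only peak 8264 bp outside the gene, and Pvr had a conventional-only peak 5962 bp outside it. Cd80, Cd86 and Icosl, the ligands of Cd28, Ctla4 and Icos, were among the 10 without a peak in either list.

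The list of other receptors had a Treg peak at 3 of 15 genes and a conventional peak at the same 3, Cd5, Cd6 and Vsir. This is 20% in each list, near the 12.3% and 16.3% of all genes. The share with a peak in both lists was also 20%, against 8.17% of all genes. Cd5 and Cd6, linked scavenger-type receptors that tune antigen receptor signals, had shared peaks. Vsir, an inhibitory receptor, had 2 Treg-only peaks and 1 conventional-only peak inside the gene, and all 3 lay equally inside the overlapping gene Cdh23. The family of Cd2 and the Slam receptors holds adhesion and costimulatory receptors. A Treg peak was present at 2 of its 8 genes (Cd2 and Slamf1), against 12.3% of all genes. A conventional peak was present at 5 of 8, against 16.3%. Over all genes, 3561 had a conventional peak, and 1788 of these had a Treg peak as well. Cd48, Ly9 and Slamf6 had a peak in the conventional list alone. Those 3 peaks were 324, 314 and 407 bp wide, below the conventional median of 428 bp.

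Signalling partners of the receptors had a Treg peak at 12 of 21 genes, against 12.3% of all genes. A conventional peak was present at 12 of 21, against 16.3%, and 10 had one in both lists, against 8.17%. Pik3r1 and Pik3cd, subunits of the phosphoinositide kinase that Cd28 and Icos recruit, had a shared peak each, as did the adaptors Grb2 and Grap2 and the exchange factor Vav1, which act downstream of Cd28. Inpp5d, a phosphatase that opposes that kinase, had a shared peak of 584 bp in the Treg list and 748 bp in the conventional list. Further conventional-only peaks lay at Pik3cd, Grap2, Vav1 and Inpp5d, and Pik3r1 had 1 further Treg-only and 1 further conventional-only peak. Of the phosphatases that bind inhibitory receptors, Ptpn11 had a Treg-only peak 23384 bp outside the gene and Ptpn6 had no peak assigned. Counted without regard to other genes, Ptpn6 had 3 peaks of each list within 10 kb. The nearest, a shared peak given to Grcc10, was 2568 bp away in the Treg list and 2180 bp away in the conventional list. Fyn had a Treg-only peak 120 bp upstream of its start site. Lck had a conventional-only peak inside the gene, 14927 bp from one annotated start site and over the promoter window of the other. Together the 4 lists had a Treg peak at 20 of 58 genes, against 12.3% of all genes. A conventional peak was present at 24 of 58, against 16.3%, and both at 18 of 58, against 8.17%. Signalling partners supplied 12 of the 20 genes with a Treg peak and 12 of the 24 with a conventional peak.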

How the data were processed

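The deposited files are 1 peak list for each of the Treg and conventional libraries, with 3 columns (chromosome, start and end) on mm10. MACS2 2.1.1, Bowtie2 2.3.4.1 and FastQC are listed in the submitters' processing notes, without their roles. The authors call the lists filtered, and neither the filter nor the control used in calling is given in the sources used here. Each list has 1 sample behind it, without replicates, counts or scores.

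Coordinates are printed 1-based. Genes are spans from a RefSeq table of GRCm38.p6, without mitochondrial genes, and strand and start sites come from the RefSeq promoter table. Shared peaks have at least 1 bp in common with a peak in the second list. Python 3.11.15, numpy 2.4.6, pandas 2.3.3, scipy 1.17.1 and matplotlib 3.10.9 were used. Overlap and assignment were checked on simulated lists. No test between cell types was possible, and none over gene lists was made. The text names all receptors, pathway list genes that have a peak or are needed to account for a list, and neighbours that took a peak. The receptors and lists were chosen with earlier results of these data known. No genome sequence was used, so letters were searched in promoter windows and not in whole peaks. Tmigd2, of the list of other receptors, was not in the gene table, and 1 gene of the list of signalling partners is not reported here and was left out of its counts. Alternatives covered distance limits, gene types, list length, merging and the definition of overlap.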

Additional observations from a re-analysis of the deposited data

How the results depend on the processing

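Across 55 recomputed counts for 9 results, 43 stayed within 1.5 times the value given above. The other 12 all came from shortening the lists by width. With the wider part of each list (1706 Treg and 2274 conventional peaks), the conventional list had 1 peak at 1 receptor (Pdcd1), and 1 receptor had a peak in both lists. Shared peaks at the receptors then numbered 1 in the Treg list and 1 in the conventional list when classes were found anew, and conventional-only peaks 0. With the classes of the whole lists kept, there were 1 Treg-only, 1 shared conventional and 0 conventional-only peaks. At equal list lengths the conventional list had 3 peaks at 3 receptors (Ctla4, Pdcd1 and Tigit), and conventional-only peaks numbered 0. The peaks lost were the narrow conventional ones at Btla, Lag3, Ctla4 and Tigit (the last 2 only in the wider part) and the narrow Treg peak at Cd28. Distance limits of 20 and 10 kb removed the far Treg peak at Tigit and left the numbers of receptors with a peak as they were. Counting every peak within 10 kb gave 5 receptors with a Treg peak and 4 with both, through Lag3. Letting genes of any type compete took the Treg peak from Cd28. Requiring 50% overlap of both peaks, or midpoints within 1000 bp, changed no class. No paired analysis was possible because each cell type has 1 library and the results come from no test. Depth is unknown, so a missing peak does not show that Tcf1 was absent.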

Other observations

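Among the promoters of the pathway lists, 5 of 60 windows were overlapped by a Treg peak and 6 of 60 by a conventional peak, near the 4.86% and 7.66% of all windows. The TCF/LEF-type letters CTTTGA were found in 9 of the 60, against 16.0% of all windows, so this count is near the background. They lay inside an overlapping peak at 3 genes. Windows of Cd48, Cd160, Havcr1, Pik3cg, Cd80 and Trat1 held them and were overlapped by no peak. Akt2, a kinase of the phosphoinositide pathway, had 2 matches to CTTTGAT inside its shared peak, 214 and 190 bp upstream of the start site in a window that both lists covered in full. Fyn, a kinase of proximal antigen receptor signalling, had 1 match inside its Treg-only peak, 27 bp from the peak's midpoint. Cd274 had a match to the shorter letters CTTTGA inside its shared peak, 64 bp from the Treg and 41 bp from the conventional midpoint.

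Over all promoter windows, CTTTGAT was found in 8.06% of the 1055 that peaks of both lists overlapped (exact 95% Clopper-Pearson interval 6.49% to 9.87%) and in 3.67% of the 29793 that no peak overlapped (3.45% to 3.88%). It was found in 6.32% of windows overlapped by a Treg peak and 4.65% of those overlapped by a conventional peak. The core CTTTGA differed less, at 19.3% of windows overlapped in both lists, 16.8% of Treg windows and 14.7% of conventional windows, against 16.2% of windows without a peak. The ETS-type letters GGAAGT were found in 33.9% of windows overlapped in both lists and 22.8% of those without a peak, and the RUNX-type letters TGTGGT in 11.2% and 17.3%. Windows of neighbouring start sites can overlap, and these shares are descriptions without a test. Ctla4 is among the 85 windows that peaks of both lists overlapped and that held CTTTGAT.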
